A study of Mus musculus with 9 samples.

Results

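Oligomycin is an inhibitor of mitochondrial ATP synthase that plugs the proton channel of the enzyme's membrane part. The comparison described here sets activated mouse CD8 T cells that were given DAHB together with 10 nM oligomycin (DAHB+O) against cells given DAHB without it (DAHB), and takes in 6 of the 9 libraries of the series, 3 per group, chosen by their labels. The remaining 3 libraries, from cells given 20 mM NaCl as control (NaCl), are shown beside them for orientation. All 9 libraries carry 1 batch label. All cells were CD8 T cells of wild-type mice, taken from spleen and lymph nodes, stimulated with antibodies to CD3 and CD28 and kept overnight in the treatment, with 100000 cells to a sample. DAHB is written only as an abbreviation in the labels, which give its dose as 20 mM where it was used without oligomycin and state no dose for it in DAHB+O. A group with oligomycin and no DAHB was not analysed here, so what oligomycin does in the absence of DAHB cannot be read from these libraries. No label ties the replicates of a group to separate mice or cultures. The p-values therefore measure the spread between these libraries, which may be technical.

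ATP synthase makes ATP from the proton gradient that the respiratory chain builds across the inner mitochondrial membrane, and with the enzyme blocked the gradient is no longer spent on ATP and respiration slows. Stress inside mitochondria is relayed to the cytosol by the integrated stress response, in which kinases phosphorylate the initiation factor eIF2, general translation drops and the transcription factor ATF4 is made instead. ATF4 induces enzymes, carriers and tRNA synthetases that supply amino acids. Activated CD8 T cells also depend on mitochondria and glycolysis to make perforin, granzymes, cytokines and chemokines, and HIF-1, a factor whose breakdown requires oxygen, drives many of the glycolysis genes.

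The values are normalized counts, read counts that the authors divided by a size factor for each library, and are relative to the other genes of that library. They do not give RNA per cell, and in bulk RNA fewer cells of a type and less RNA per cell cannot be told apart. Whole reads recovered from them came to 28146402 to 36680103 per library in DAHB+O, 32738726 to 36088702 in DAHB and 33811363 to 39207045 in NaCl. The table lists 16344 genes. A mean of 10 or more over all 9 libraries was required for testing, which 14169 genes met, and limma called a gene at a Benjamini-Hochberg adjusted p under 0.05. In DAHB+O against DAHB 62.6% of tested genes were called, 33.1% higher and 29.5% lower in DAHB+O. Calls with a change of at least 2-fold were 2.8% higher and 6.11% lower, and the 3 libraries of one group did not overlap with the 3 of the other in 67.6% of genes. The median log2 fold change over all tested genes was 0.016. These shares are the background against which the counts of each gene list below are set. Principal component 1 (67.2% of the variance) separated NaCl from the other groups, and component 2 (23.4%) separated DAHB+O from DAHB.

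Markers of CD8 T cells were abundant in every library. Cd8a stood at 16166, 16582 and 16499 normalized counts in DAHB+O and 22405, 22631 and 21212 in DAHB, while Cd4 stood at 251, 205 and 236 in DAHB+O and 211, 227 and 212 in DAHB. All 18 CD8 T cell identity genes on the list were tested, and their summed level was 216494 to 220845 in DAHB+O, 264896 to 273290 in DAHB and 251202 to 260954 in NaCl. Of these 18 genes 13 fell and 2 rose in DAHB+O. Cd3e, a subunit of the T cell receptor complex, fell by 0.74 ± 0.050 (SE, log2) and Zap70, its proximal kinase, by 0.67. Markers of other cells had lower sums. The 10 tested of 11 B cell markers summed to 2138 to 2332 in DAHB+O, 3122 to 3417 in DAHB and 8199 to 8844 in NaCl, with 7 of the 10 lower in DAHB+O. The 7 tested of 11 monocyte and macrophage markers summed to 865 to 984 in DAHB+O and 1043 to 1262 in DAHB, with 3 higher and 2 lower. Among the 3, Lyz2, lysozyme of myeloid cells, stood 2.22 ± 0.20 higher in DAHB+O on the log2 scale. The 2 tested of 7 neutrophil markers, Ly6g and Cxcr2, summed to 3.8 to 8.9 in DAHB+O and 30.8 to 98.0 in DAHB, and both fell. The 9 tested of 11 dendritic cell markers summed to 30484 to 32450.4 in DAHB+O and 30843 to 33388 in DAHB, most of it from Ccr7, which T cells also express, with 2 higher and 4 lower. The 6 tested of 9 natural killer cell markers summed to 2171 to 2326 in DAHB+O and 2837 to 3072 in DAHB, with 2 lower and none higher. The 4 tested of 5 markers for CD4 or regulatory T cells summed to 3849.9 to 4017 in DAHB+O and 2876 to 3068 in DAHB, with 2 higher and none lower, and the 2 tested of 7 stromal and endothelial markers to 1425 to 1618 in DAHB+O and 1599 to 1734 in DAHB, with 1 lower. None of the 6 erythroid and platelet markers reached the level for testing. The part of these cells in the results below was not tested.

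The 4 largest rises of the comparison, Trib3, Nupr1, Ddit3 and Chac1, were all genes of the integrated stress response. All 7 tested transcription factors of the list rose in DAHB+O, with a median log2 fold change of 1.37. Ddit3, which encodes CHOP, a factor made when the stress persists, stood at 2095, 2004 and 1943 normalized counts in DAHB+O, against 146, 162 and 164 in DAHB and 448, 379 and 391 in NaCl. The 3 DAHB+O libraries lay above all others, and the 3 DAHB libraries lay below all NaCl libraries. The log2 fold change of DAHB+O over DAHB was 3.67 ± 0.075 (SE, limma adjusted p = 3.65e-14). Nupr1, a small stress-induced chromatin protein (chromosome 7, 126623249 to 126630861, GENCODE vM21 on mm10, as for all gene coordinates here), stood at 803, 709 and 649.8 in DAHB+O, against 39.8, 33.9 and 25.0 in DAHB and 32.1, 37.4 and 22.7 in NaCl, so that it was high in DAHB+O only among these 3 groups. Its rise was 4.43 ± 0.19 on the log2 scale (limma adjusted p = 7.15e-11).

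Atf4 itself (chromosome 15, 80255184 to 80257541) had 14659, 13599.5 and 13086 normalized counts in DAHB+O, against 5467, 4881 and 4364 in DAHB and 9883, 9291 and 8959 in NaCl, a rise over DAHB of 1.5 ± 0.067 (limma adjusted p = 9.54e-11). Cebpg, which encodes a partner that pairs with ATF4 on DNA, rose by 1.37 ± 0.052. The other members rose by less, Cebpb by 1.01, Atf5 by 0.74 and Atf3 by 0.53. Among feedback and secreted targets the direction was mixed, with 3 higher, 3 lower and 2 that did not pass. Trib3, a pseudokinase that restrains ATF4, rose by 4.47 ± 0.10, Chac1, which degrades glutathione, by 3.58 ± 0.14, and Sesn2, which senses leucine for mTORC1, by 1.38 ± 0.077. Ddit4, an inhibitor of mTORC1 that HIF-1 also induces, fell by 0.67 ± 0.082, and Vldlr, a lipoprotein receptor, by 0.85 ± 0.11.

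The messages of the sensors moved little or the other way. Of 5 tested sensors 1 rose and 3 fell. Oma1, the inner membrane protease that passes mitochondrial stress on, had 762, 874 and 879 normalized counts in DAHB+O and 672, 706 and 696 in DAHB, a rise of 0.28 ± 0.064 (limma adjusted p = 0.00155). The groups did not overlap, and the change was small beside those of the targets. Eif2ak1, the heme-regulated kinase that receives the OMA1 signal, gave -0.05 (limma adjusted p = 0.403). Eif2ak3, the kinase of the endoplasmic reticulum, fell by 0.64, Eif2ak4, which senses uncharged tRNA, by 0.18 and Eif2ak2, the kinase activated by double-stranded RNA, by 0.15. The call of Eif2ak2 was lost without DAHB replicate 2 (adjusted p = 0.0701), DAHB+O replicate 1 (0.0585) or DAHB+O replicate 3 (0.0847). Of 8 translation initiation genes, subunits of eIF2 and of its exchange factor eIF2B, 6 rose and 1 fell, with Eif2s2 at 0.65 and Eif2b4 at 0.37.

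**Figure D1:**
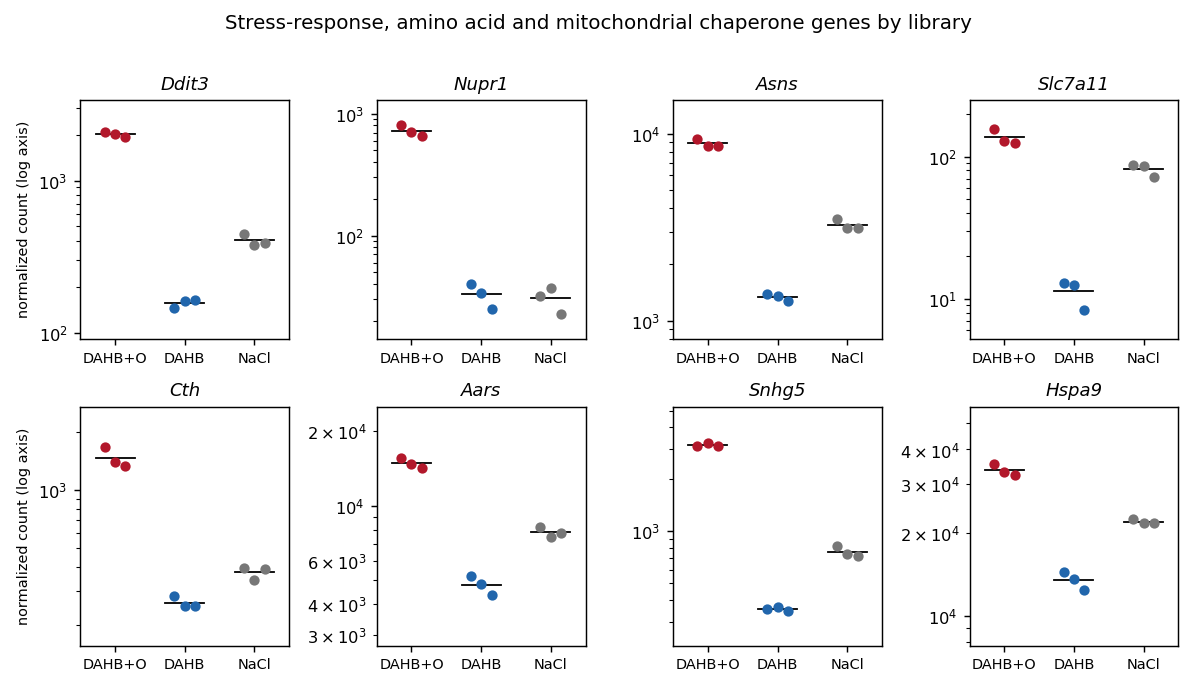
Normalized counts of 8 genes (log axis) in the 3 libraries each of DAHB+O, DAHB and NaCl, where a point is a library and a bar the group mean. In each of the 8 genes the DAHB+O libraries lie above the DAHB libraries without overlap, from Hspa9 at a log2 fold change of 1.33 to Nupr1 at 4.43.

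ATF4 paired with a C/EBP factor binds the composite C/EBP-ATF response element. Promoter sequence, taken from 250 bases before to 50 after each gene's start (RefSeq, GRCm38.p6), was searched on both strands for TGATGNAA, where N is any base. It was found in 3.97% of 32851 single promoters in the RefSeq table and in 2.81% of the 9727 tested genes with a promoter there. In all shares of genes here, a gene counts if any of its promoters held the match, so they differ in kind from shares of single promoters. Of the 397 genes at least 2-fold higher in DAHB+O 266 had a promoter in the table, and 10.2% of these held it. Of the 866 at least 2-fold lower 481 had one, and 3.12% of these held it. Among list members with a promoter in the table it was found in 6 of 26 genes of the stress response core and in 3 of 21 of amino acid synthesis. It was also in 3 of 13 genes of amino acid carriers and in 5 of 13 of cytosolic tRNA synthetases. These lists name genes by role, so their shares may follow from that choice and do not bear on the change in DAHB+O. The windows below are shown because they belong to strongly raised members of these lists, and the last because its gene fell. Each is printed 5′ to 3′ on the strand of its gene with the match in capitals, and TTGCATCA is the same element read from the other strand.
Nupr1, chr7:126625553-126625600 (- strand): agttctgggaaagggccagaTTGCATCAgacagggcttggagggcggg
Chac1, chr2:119351029-119351076 (+ strand): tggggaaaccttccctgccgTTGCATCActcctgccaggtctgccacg
Slc7a11, chr3:50443633-50443699 (- strand): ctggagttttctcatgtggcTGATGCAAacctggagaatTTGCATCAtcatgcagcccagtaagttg
Asns, chr6:7693210-7693252 (- strand): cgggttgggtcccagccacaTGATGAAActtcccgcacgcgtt
Pycr1, chr11:120643824-120643871 (- strand): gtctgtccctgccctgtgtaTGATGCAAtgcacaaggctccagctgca
Aars, chr8:111033710-111033757 (+ strand): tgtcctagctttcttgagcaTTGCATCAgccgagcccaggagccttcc
Vldlr, chr19:27216800-27216847 (+ strand): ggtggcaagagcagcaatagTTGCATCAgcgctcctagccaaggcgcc
The match of Nupr1 began 110 bases before the start and that of Asns 23 bases before it, and Slc7a11 had 2 matches, 66 and 47 bases before it. Vldlr held the same element 200 bases before its start, and its level was 333, 329.6 and 311 normalized counts in DAHB+O, against 457, 654 and 665 in DAHB. A match is a description of the letters in this window and says nothing about binding in these cells.

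Enzymes that make amino acids and carry one-carbon units rose as a set, 22 of 28 tested with 2 lower and 4 that did not pass, at a median log2 fold change of 0.80. Asns, which makes asparagine (chromosome 6, 7675169 to 7693254), had 9430.1, 8641 and 8562 normalized counts in DAHB+O, against 1385, 1352 and 1277 in DAHB and 3479, 3119 and 3141 in NaCl. The DAHB libraries were lowest and the DAHB+O libraries highest, with no overlap among the 3 groups, and the rise over DAHB was 2.73 ± 0.052 (SE, limma adjusted p = 2.36e-14). Cth, cystathionine gamma-lyase of cysteine synthesis, had 1682, 1401 and 1331 in DAHB+O, against 283, 249.8 and 250.3 in DAHB and 393, 341 and 389.6 in NaCl. Its rise over DAHB was 2.49 ± 0.089. Gpt2, which links alanine to glutamate in mitochondria, rose by 2.28 and Aldh18a1, the first enzyme of proline synthesis, by 1.77.

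All 5 genes of serine and glycine synthesis rose, with Phgdh, the entry enzyme, at 1.31, Psat1 at 1.17 and the mitochondrial Shmt2 at 1.39. In the folate branch 6 of 9 rose and 2 fell, and its mitochondrial members parted. Mthfd2, a mitochondrial dehydrogenase, had 13762, 12808 and 12471 normalized counts in DAHB+O, against 4851, 4579 and 4189.9 in DAHB, and Aldh1l2, which oxidises formyl groups there, had 398, 317 and 338 in DAHB+O, against 45.8, 44.5 and 56.3 in DAHB. They rose by 1.52 ± 0.053 and 2.82 ± 0.15. Mthfd1l, which releases formate at the end of the mitochondrial branch, had 4169.5, 4242 and 4170.4 in DAHB+O, against 6586, 6840.2 and 6656 in DAHB and 10893, 11405 and 11493 in NaCl, and fell by 0.67 ± 0.035 (limma adjusted p = 4.51e-10).

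Amino acid carriers of the plasma membrane and lysosome rose in 15 of 19 cases and fell in 1, with a median of 0.417. Slc7a11, which brings in cystine in exchange for glutamate (chromosome 3, 49892526 to 50443614), had 156, 129 and 125 normalized counts in DAHB+O, against 12.9, 12.6 and 8.34 in DAHB and 87.9, 85.5 and 71.6 in NaCl. DAHB had the lowest and DAHB+O the highest libraries without overlap, and the rise of 3.5 ± 0.19 over DAHB (limma adjusted p = 7.68e-10) went with a difference of 0.73 from NaCl. Slc7a3, a carrier of cationic amino acids, rose by 3.15 ± 0.086, Slc6a9, a glycine carrier, by 2.91 ± 0.19 and Slc1a4, a carrier of alanine and serine, by 2.17 ± 0.069. Slc7a5 and Slc3a2, the subunits of the large neutral amino acid carrier of activated T cells, rose by 1.5 and 1.08, where Slc7a5 is blank in NaCl replicate 2 and was fitted without that value. Slc7a2, an arginine carrier, stayed low at 17.9, 18.4 and 22.3 in DAHB+O and 18.9, 18.4 and 34.4 in DAHB, against 208, 221 and 226 in NaCl, with -0.22 ± 0.22 between DAHB+O and DAHB (limma adjusted p = 0.392), and the sign turned under quantile normalization (0.019) and without DAHB replicate 3 (0.059).

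Of 20 tested cytosolic tRNA synthetases 18 rose and 2 fell, at a median of 0.76. The strongest was Aars, the alanyl-tRNA synthetase (chromosome 8, 111033144 to 111057664), with 15640.0, 14781 and 14231 normalized counts in DAHB+O, against 5233, 4838 and 4354 in DAHB and 8229, 7510.0 and 7739.9 in NaCl and a log2 fold change of 1.63 ± 0.059 over DAHB (limma adjusted p = 1.07e-11). Cars, Nars and Yars followed at 1.52, 1.34 and 1.25. Qars, the glutaminyl-tRNA synthetase, went the other way at -0.31 ± 0.041, as did Dars at -0.27. The synthetases that serve mitochondria rose in 10 of 17 cases and fell in none, with a smaller median of 0.212, and Mars2 rose by 0.64.

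Small nucleolar RNA host genes, whose spliced transcripts are cleared by nonsense-mediated decay when they are translated, rose in 7 of 10 cases with none lower, at a median of 1.07. Snhg5 had 3136, 3267 and 3106 normalized counts in DAHB+O, against 352, 363 and 347 in DAHB and 825, 740.3 and 721 in NaCl. No libraries overlapped, and the rise over DAHB was 3.16 ± 0.056 (SE, limma adjusted p = 2.36e-14). Snhg12 rose by 2.69, Gas5 by 1.6 and Snhg1 by 1.27, each also above NaCl, by 1.86, 1.12 and 0.61. Cytosolic ribosomal protein genes rose in 53 of 78 cases and fell in 1, but by little, with a median of 0.147 and Rpl12 at 0.39 as the largest. Some ribosomal protein genes have near-identical copies, so their reads may be split.

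**Figure D2:**
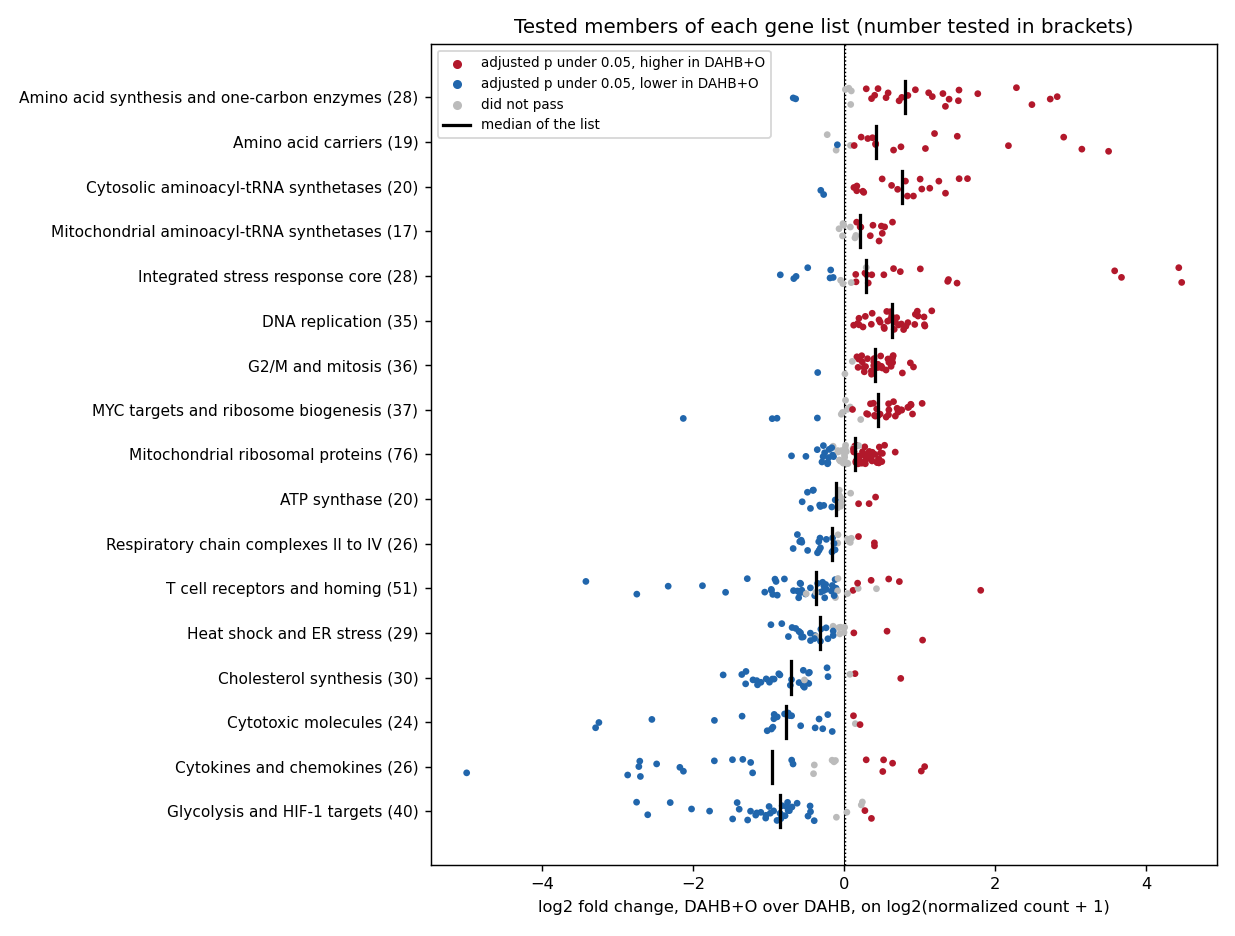
Log2 fold change of DAHB+O over DAHB for every tested member of 17 gene lists, where a point is a gene, red and blue mark calls higher and lower at an adjusted p under 0.05, grey marks genes that did not pass, and the bar is the median of the list. Medians run from 0.80 for amino acid synthesis at the top to -0.95 for cytokines and chemokines, with the dotted line at the median of all tested genes, 0.016.

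Genes of the target enzyme and of the respiratory chain changed by much less. Of 20 tested ATP synthase genes 3 rose, 10 fell and 7 did not pass, at a median of -0.103. In the catalytic head 2 of 5 genes fell and none rose. Atp5b, the catalytic beta subunit, was at 44562, 44267 and 44449 normalized counts in DAHB+O and 46429, 47049 and 44104 in DAHB, and Atp5a1, the alpha subunit, was at 31938, 32286 and 32785 in DAHB+O and 33665, 34446 and 31648 in DAHB. The groups overlapped, with log2 fold changes of -0.05 and -0.04 (limma adjusted p = 0.305 and 0.401). Under quantile normalization the sign of Atp5b (0.013), Atp5a1 (0.16, adjusted p = 0.00114), Atp5c1 (0.035) and Atp5f1 (0.088, adjusted p = 0.0115) turned positive. In the membrane part and peripheral stalk 7 of 11 fell with none higher. Atp5f1, Atp5j and Atp5o overlap genes on the opposite strand, and without a stated strand setting their reads cannot be told apart. Atp5g3, one of the genes for the c-ring through which oligomycin acts, had 7572, 7652 and 7814 in DAHB+O, against 11179.6, 11072 and 10050.4 in DAHB, and fell by 0.49 ± 0.042. Its paralogs Atp5g1 and Atp5g2, which encode the same mature protein, gave 0.09 and -0.06 and did not pass. Usmg5, needed to hold the enzyme in dimers, fell by 0.56 ± 0.056. The assembly factors Atpaf1, Atpaf2 and Tmem70 rose by 0.42, 0.19 and 0.33. Atpif1, the inhibitor of the reverse reaction, gave -0.16, a call lost without DAHB replicate 1 or 2 or DAHB+O replicate 1 or 2 (adjusted p = 0.0795 to 0.125).

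Complexes II to IV had 3 genes higher, 17 lower and 6 that did not pass of 26, at a median of -0.157, and complex I had 6 higher, 14 lower and 16 that did not pass of 36, at -0.064. In complex III Uqcrh and Uqcr11, small subunits, fell by 0.68 and 0.62, while Cyc1, the cytochrome c1 subunit, rose by 0.4. In complex II Sdhd, a membrane anchor, fell by 0.59 and Sdhb, the iron-sulfur subunit, rose by 0.4. No complex IV gene rose and 9 of 12 fell, with Cox6b1 at -0.57. In complex I Ndufv3 and Ndufa1 fell by 0.68 each. Under quantile normalization 6 genes of complexes II to IV and 5 of ATP synthase were higher.

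Messages of the mitochondrial genome went both ways, with 4 of 10 tested higher, 5 lower and 1 that did not pass. Of the 6 complex I messages 4 rose, mt-Nd1 fell and mt-Nd3 did not pass. The 4 tested messages of complexes III and IV fell, mt-Co2 and mt-Co3 among them at very few counts. Under quantile normalization 1 of these 4 was lower and 1 higher. The share of all normalized counts that mitochondrial genome messages took was 1.96%, 2.05% and 2.18% in DAHB+O, against 2.37%, 1.89% and 2.08% in DAHB, so the groups overlapped in total. mt-Nd5, a subunit of complex I, had 78684, 86413 and 91244 normalized counts in DAHB+O, against 72627, 56669.9 and 65226 in DAHB. mt-Nd2, another, had 47712, 48305 and 51560.5 in DAHB+O, against 42486, 25958 and 29121 in DAHB. The DAHB+O libraries lay above the DAHB libraries in both, closely so for DAHB replicate 1, and the messages rose by 0.4 ± 0.073 and 0.63 ± 0.12 (SE, limma adjusted p = 0.000205 and 0.000294), as did mt-Nd6 by 0.54 and mt-Nd4 by 0.3. Reads of mt-Nd6 cannot be told apart from those of the opposite strand, since no strand setting of the counting is given. mt-Co1, the core of complex IV, had 203848, 228788 and 247842 in DAHB+O, against 399135, 356041 and 383029 in DAHB, and mt-Cytb, of complex III, had 28317, 29289 and 32659 in DAHB+O, against 54817, 43946 and 49489.6 in DAHB. These fell by 0.75 ± 0.067 and 0.71 ± 0.067 (limma adjusted p = 1.66e-07 and 2.79e-07), but mt-Co1, one of the most abundant messages, was higher under quantile normalization (0.16, adjusted p = 7.89e-05). In complex I, mt-Nd1 fell by 0.44 and was highest by far in DAHB replicate 1, at 83216, 52582 and 55489 in the 3 DAHB libraries. The complex IV messages mt-Co2 and mt-Co3 and the complex I message mt-Nd3 (log2 fold change -1.01 ± 0.42) had at most 23.6, 22.9 and 18.9 normalized counts in any library. Why they had so few counts beside mt-Co1 was not tested. Their calls changed between alternatives, as did those of Atp5c1, Atp5g1 and Atp5h.

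**Figure D3:**
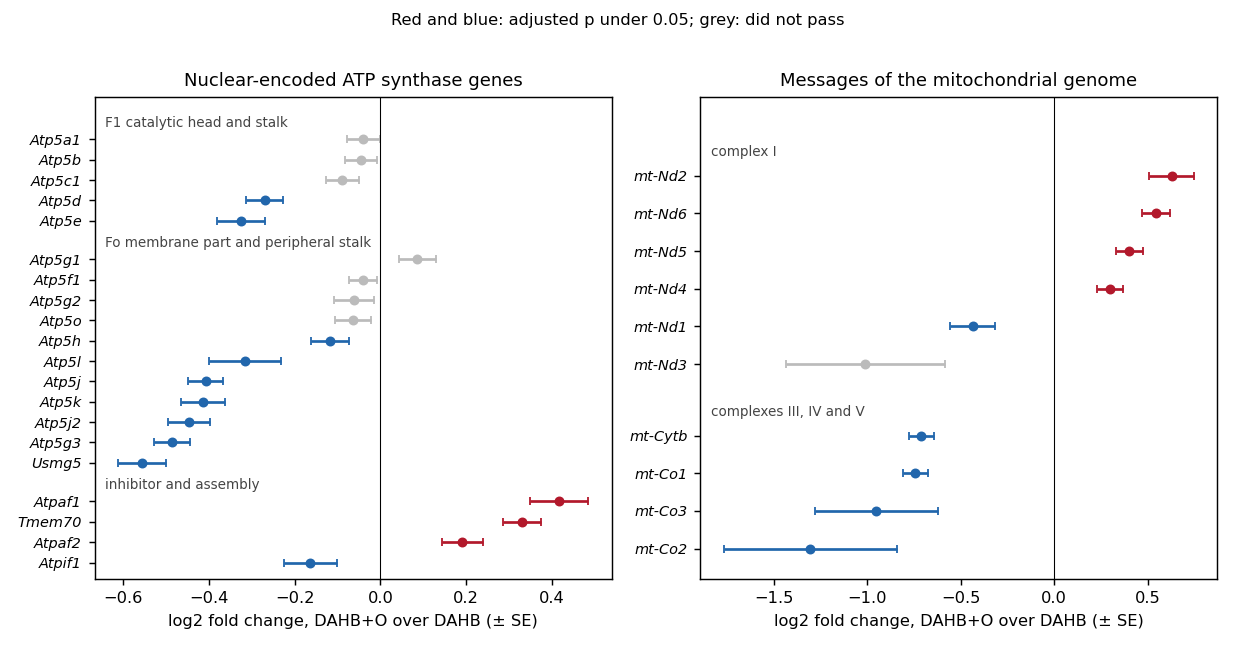
Log2 fold change of DAHB+O over DAHB with its standard error for each tested ATP synthase gene (left) and mitochondrial genome message (right), grouped by role, in red or blue where the adjusted p was under 0.05. In the left panel Usmg5 lies lowest at -0.56 and Atpaf1 highest at 0.42, and in the right panel 4 complex I messages lie right of 0, while mt-Nd1, mt-Nd3 and every tested message of complexes III and IV lie left of it.

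Among genes of mitochondrial protein quality control the chaperones mostly rose, and the proteases less so. Of 17 chaperone and protease genes 11 rose and 2 fell. The 7 chaperones had 6 higher and 0 lower, at a median of 0.407. The 10 proteases had 5 higher and 2 lower, at a median of 0.062. Hspa9, the matrix chaperone mortalin, had 35560.0, 33172 and 32361 normalized counts in DAHB+O, against 14353, 13598 and 12426 in DAHB and 22431, 21572 and 21660.3 in NaCl, and all 3 DAHB+O libraries were above the rest. Its log2 fold change over DAHB was 1.33 ± 0.050 (limma adjusted p = 1.88e-11). Clpp, the matrix protease, rose by 0.73 and Grpel2, a cochaperone of mortalin, by 0.75, while Afg3l2, a protease of the inner membrane, fell by 0.59. Mitochondrial ribosomal proteins rose in 42 of 76 cases and fell in 15, at a median of 0.148. Of 12 genes of biogenesis and mitochondrial gene expression 7 rose and 3 fell, with Pprc1, a coactivator related to PGC-1, at 0.9, and of 7 genes of fusion, fission and mitophagy 2 fell and none rose.

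The genes of killing molecules were lower in DAHB+O. Of 24 tested cytotoxic genes 21 fell, 2 rose and 1 did not pass, at a median of -0.765, and all 7 of the pore-forming protein and the granzymes fell. Prf1, which encodes perforin (chromosome 10, 61297833 to 61304680), had 7208, 7925 and 9298 normalized counts in DAHB+O, against 74350.3, 81152 and 82502 in DAHB and 8388, 10579 and 9956 in NaCl. DAHB stood alone at the top, and DAHB+O and NaCl overlapped. Perforin message fell by 3.29 ± 0.086 on the log2 scale against DAHB (SE, limma adjusted p = 4.48e-13) and differed by -0.24 from NaCl. Gzmb, granzyme B (chromosome 14, 56258838 to 56262260), had 192534, 196859 and 195606 in DAHB+O, against 485522, 505913 and 501127 in DAHB and 243723, 249120.0 and 244712 in NaCl, and fell by 1.35 ± 0.046 against DAHB to below its NaCl level. Gzmk was weak, with 2.83, 6.91 and 14.3 in DAHB+O, against 57.7, 84.2 and 78.2 in DAHB, and fell by 3.25 ± 0.42, and Gzmc fell by 0.74.

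Genes of granule cargo and release fell in 10 of 11 cases, including Nkg7, a granule membrane protein, by 0.79 and Rab27a, which docks granules, by 0.94. Serpinb9 and Serpinb6b, protease inhibitors that shield the killer cell from its own granzymes, fell by 0.72 and 1.02. Of the death ligands, Tnfsf10 (TRAIL) fell by 1.72 ± 0.071, and Fasl gave 0.15 ± 0.10 (limma adjusted p = 0.222), with 654, 583 and 562 normalized counts in DAHB+O and 608, 544 and 477 in DAHB, and passed with a replicate block (adjusted p = 0.0439). The activating receptor Klrk1 (NKG2D) fell by 0.7, while Cd226 rose by 0.21.

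**Figure D4:**
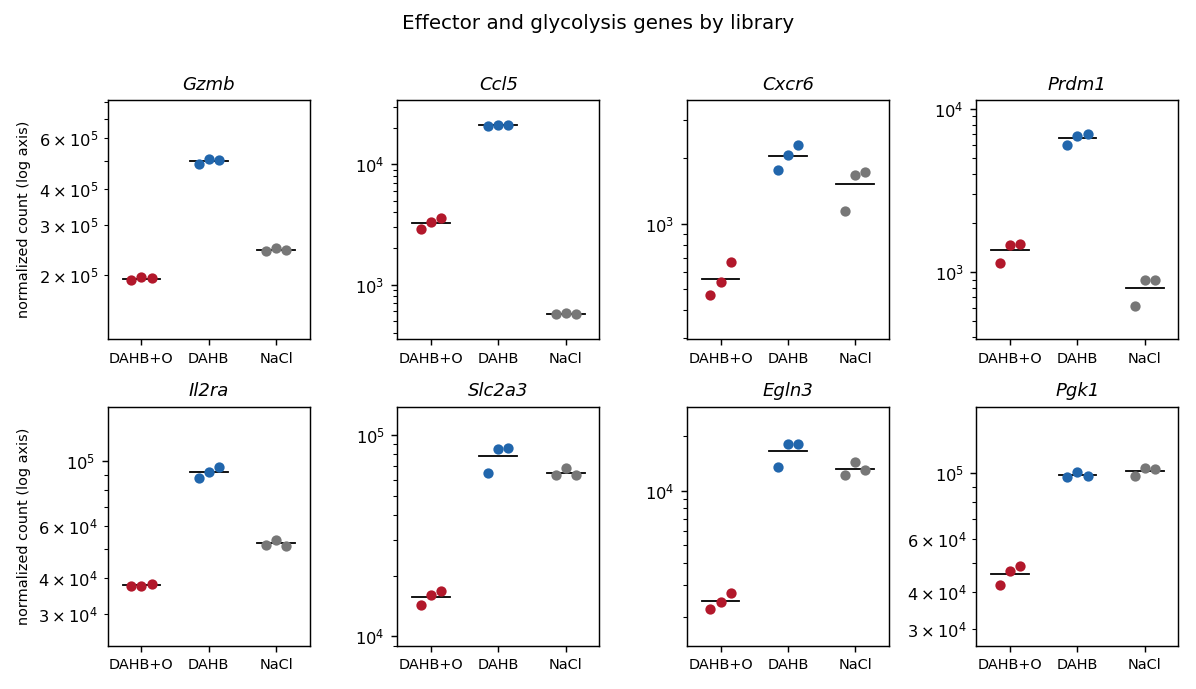
Normalized counts (log axis) of 8 effector, receptor and glycolysis genes in the 3 libraries each of DAHB+O, DAHB and NaCl, where a point is a library and a bar the group mean. DAHB+O lies below DAHB without overlap in each of the 8, from Pgk1 at a log2 fold change of -1.1 to Egln3 at -2.75, while its place relative to NaCl varies, from above it in Ccl5 to below it in Slc2a3.

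Secreted messengers did not move as a block. Of 26 cytokines and chemokines 15 fell, 6 rose and 5 did not pass, at a median of -0.953. Among 7 chemokines 5 fell. Ccl5 (chromosome 11, 83525778 to 83530518) had 2880.4, 3320.1 and 3569.7 normalized counts in DAHB+O, against 20819, 21072 and 21260.3 in DAHB and 566, 586 and 573 in NaCl. The 3 groups did not overlap, with DAHB+O between the others, and the fall against DAHB was 2.7 ± 0.059 (log2, limma adjusted p = 7.16e-14), while DAHB+O remained 2.49 above NaCl. The same order held for Ccl3, Ccl4 and Ccl9, which fell by 2.17, 2.13 and 2.48 against DAHB and stood 2.88, 1.99 and 2.61 above NaCl.

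Il10, the anti-inflammatory cytokine (chromosome 1, 131019845 to 131024974), had 74.6, 86.4 and 126 normalized counts in DAHB+O, against 2714, 2951 and 3409 in DAHB and 128, 220.2 and 198 in NaCl, and was lowest in DAHB+O, 0.92 below NaCl on the log2 scale. Il24 fell by 2.87, Il3 by 2.72 and Osm, oncostatin M, by 1.34. The cytokines of a type 1 response parted. Ifng had 3424, 3022 and 2898 in DAHB+O, against 5926, 4929 and 4192 in DAHB and 1743, 1365 and 1296 in NaCl, and fell by 0.68 ± 0.11 (limma adjusted p = 0.000106). Tnf had 2977, 2332 and 2532 in DAHB+O, against 2104, 1727 and 1633 in DAHB and 611, 577 and 501 in NaCl, and rose by 0.52 ± 0.099 (limma adjusted p = 0.000308). Csf2, GM-CSF, had 93.4, 72.6 and 81.2 in DAHB+O, against 40.8, 38.7 and 36.5 in DAHB, and rose by 1.07 ± 0.19. Il2 had 103, 78.4 and 98.2 in DAHB+O and 151, 106 and 114 in DAHB, and its -0.4 did not pass (limma adjusted p = 0.11), though it did with edgeR (0.0336) and in a fit of the 6 libraries alone (0.0451).

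Transcription factors of effector cells fell in 11 of 18 cases and rose in 2. Prdm1, which encodes Blimp-1, a driver of terminal differentiation (chromosome 10, 44437177 to 44528501), had 1137, 1467 and 1486 normalized counts in DAHB+O, against 5994, 6801 and 7025 in DAHB and 624, 899.6 and 889.8 in NaCl, and fell by 2.28 ± 0.12 (log2, limma adjusted p = 7.22e-10). All DAHB+O libraries lay below DAHB and above NaCl. Batf fell by 1.18 and Ikzf3 by 0.76, while Gata3, the type 2 lineage factor, rose by 1.09 to a level near that of NaCl, with 1079.7, 1066 and 1103 in DAHB+O, 509, 531 and 481 in DAHB and 1035, 1009.7 and 990.4 in NaCl. Tbx21 (T-bet) gave -0.04 ± 0.072 and Eomes 0.13 ± 0.13 (limma adjusted p = 0.644 and 0.422), with overlapping groups. Both changed sign in some alternatives, and Eomes passed without DAHB replicate 1 (0.33, adjusted p = 0.00627). Of 13 factors of memory and stem-like cells 6 rose and 5 fell, with Tcf7 (TCF-1) at 0.55 ± 0.043 and Foxo1 at -0.7 ± 0.053. Of 6 factors of exhaustion 3 rose, Nr4a3 by 1.11, Tox by 0.73 and Nr4a1 by 0.62, while Nr4a2 fell by 1.31.

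Surface receptors were lower in 37 of 51 cases, higher in 6, and did not pass in 8, at a median of -0.374. Il2ra, the high-affinity subunit of the IL-2 receptor, had 37453, 37531 and 38098 normalized counts in DAHB+O, against 87729, 92009 and 95482 in DAHB and 51638, 54005 and 51407 in NaCl. The groups did not overlap and DAHB+O was lowest, 1.28 ± 0.041 below DAHB (log2, limma adjusted p = 3.77e-12). Inhibitory receptors fell in 8 of 11 cases, Ctla4 by 1.57, Lag3 by 0.92, Tigit by 0.9, Pdcd1 (PD-1) by 0.89 and Havcr2 (TIM-3) by 0.56. Costimulatory receptors fell in 8 of 9 cases, with Cd28 at -0.96 and Tnfrsf8 (CD30) at -2.75, and Cd40lg, a gene typical of CD4 helper cells, rose by 1.81, with 35.9, 26.5 and 34.8 in DAHB+O and 8.96, 5.81 and 11.5 in DAHB. Homing receptors fell in 9 of 15 cases. Ccr2 and Cxcr6 fell by 2.33 and 1.88.

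Early activation genes fell in 15 of 32 cases and rose in 9. The 16 of them in the AP-1 and MAPK group were split, with 4 higher, 6 lower and 6 that did not pass, at a median of -0.046. The 4 of smallest p in that group, the AP-1 genes Junb, Fosl2, Jun and Jund, fell by 1.93, 1.63, 1.54 and 1.41. Junb had 6774, 6548 and 6988 normalized counts in DAHB+O, against 23190.0, 28588 and 26029 in DAHB and 17159.6, 18063 and 18739.9 in NaCl. Junb was thus below both other groups in every DAHB+O library. Socs3, a feedback inhibitor of cytokine signalling, fell by 2.6 and Tnfaip3, which restrains NF-kB, by 1.06. Cd69, an early activation marker, rose by 0.81 ± 0.048, with 2775, 2653 and 2516 in DAHB+O, against 1555, 1445 and 1514 in DAHB.

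Glycolysis genes and other HIF-1 targets fell in 34 of 40 cases, with 2 higher and 4 that did not pass, at a median of -0.843. Slc2a3, the glucose carrier GLUT3 (chromosome 6, 122727809 to 122801640), had 14376, 16029 and 16875 normalized counts in DAHB+O, against 64321, 84759 and 85659 in DAHB and 62971, 68226 and 62924 in NaCl. DAHB+O was below every other library, by 2.3 ± 0.088 against DAHB (SE, limma adjusted p = 1.98e-11) and 2.04 against NaCl. Slc2a1 (GLUT1) fell by 1.24 and Slc16a3, which exports lactate, by 1.42, while Slc16a1, a monocarboxylate carrier, rose by 0.36.

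Of 18 glycolytic enzymes 16 fell and none rose. Pgk1, phosphoglycerate kinase, had 42166, 46829 and 48968 normalized counts in DAHB+O, against 97434, 100588 and 97791 in DAHB and 97876, 104006 and 103388 in NaCl, and fell by 1.1 ± 0.052. Ldha, which turns pyruvate to lactate, had 94415, 99985 and 103356 in DAHB+O, against 171585, 176864 and 163488 in DAHB and 160101, 163956 and 163542 in NaCl, and fell by 0.78 ± 0.048. In both genes DAHB and NaCl stood close together and DAHB+O stood alone below them. Aldoc fell by 2.6, Hk1 by 1.17 and Hk2 by 1.16, where Hk2 ended close to NaCl, with 10406, 10861 and 11154 in DAHB+O, 21968, 25174 and 25251 in DAHB and 9628, 10414 and 9971 in NaCl. Of 18 regulators and other targets 15 fell and 1 rose. Egln3, an oxygen-sensing hydroxylase that HIF-1 induces (chromosome 12, 54178981 to 54203860), had 2215, 2427 and 2706 in DAHB+O, against 13559.8, 18026 and 18060.0 in DAHB and 12161, 14478 and 13065 in NaCl, a fall of 2.75 ± 0.098 against DAHB (limma adjusted p = 9.92e-12). Bnip3 and Bnip3l, receptors for mitophagy, fell by 1.78 and 1.48, and Hif1a gave -0.05 (limma adjusted p = 0.234), with the sign turned under quantile normalization (0.15, adjusted p = 0.000507).

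The letters ACGTG form the core of the hypoxia response element. They were found, on either strand of the same promoter windows, in 26 of 38 glycolysis and HIF-1 target promoters (68.4%), against 29.8% of tested genes, 28.6% of genes at least 2-fold higher and 35.8% of genes at least 2-fold lower in DAHB+O, each among genes with a promoter there, and in 19.6% of all promoters in the table. The list names glycolysis genes and HIF-1 targets, so its 68.4% may follow from that choice and does not bear on the change in DAHB+O. Of the 26 members that held the core 22 fell, against 34 of all 40 tested members of the list. Slc16a1, a lactate carrier, rose by 0.36, and Pfkfb2, Hk3 and Car9 did not pass, at log2 fold changes of 0.24, 0.23 and 0.04. Pfkfb2 passed under quantile normalization (adjusted p = 0.0486) and without DAHB replicate 3 (adjusted p = 0.0362). Windows of 4 of the 22 are shown, with falls above and below the list median of -0.843 in size, in capitals where the core or its reverse complement CACGT stands, and where both overlap they read CACGTG, which is also a site for MYC and its relatives.
Egln3, chr12:54204079-54204123 (- strand): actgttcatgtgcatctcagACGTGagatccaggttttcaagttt
Bnip3, chr7:138909589-138909634 (- strand): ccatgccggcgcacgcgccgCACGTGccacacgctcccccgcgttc
Pgk1, chrX:106186930-106186993 (+ strand): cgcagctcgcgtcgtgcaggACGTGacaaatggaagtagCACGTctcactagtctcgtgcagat
Ldha, chr7:46845736-46845794 (+ strand): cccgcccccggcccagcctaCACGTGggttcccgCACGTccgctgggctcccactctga
These belong to genes that fell by 2.75 (Egln3), 1.78 (Bnip3), 1.1 (Pgk1) and 0.78 (Ldha), and the sequence shows letters only, not a factor bound to them.

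Other carbon metabolism was mixed. Of 33 tested genes of the citric acid cycle and pyruvate, 33.3% rose and 30.3% fell, against 33.1% and 29.5% of all tested genes. Of 17 genes of the citric acid cycle 8 rose and 3 fell, with Ogdh, of the oxoglutarate dehydrogenase complex, at 0.42 and the cytosolic Idh1 at -0.87. Of 16 pyruvate genes 3 rose and 7 fell. Pck2, the mitochondrial phosphoenolpyruvate carboxykinase, which is also an ATF4 target, had 5801, 5400.1 and 5237 normalized counts in DAHB+O, against 1031, 1079 and 996 in DAHB and 2278, 2187 and 2203 in NaCl, and rose by 2.4 ± 0.047 (limma adjusted p = 2.4e-14). Me2, mitochondrial malic enzyme, had 5334, 5611 and 5509 in DAHB+O, against 13361, 15258 and 15152 in DAHB and 15137, 15976 and 15782 in NaCl, and fell by 1.41 ± 0.048. Both genes had DAHB+O apart from the other groups, on opposite sides. In fatty acid oxidation 4 of 17 genes rose and 8 fell, with Cpt1a, the entry step, at 0.38 and Acadm at -0.41.

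Cholesterol synthesis fell along the whole pathway. All 20 tested pathway enzymes fell, at a median of -0.858. Hmgcs1, the enzyme that makes HMG-CoA (chromosome 13, 119690379 to 119708260), had 3670.3, 3816 and 4165 normalized counts in DAHB+O, against 9363, 9996 and 9390.3 in DAHB and 16564, 17001 and 17605 in NaCl. The groups stood in 3 separate levels with DAHB+O lowest, 1.3 ± 0.047 below DAHB (log2, limma adjusted p = 1.07e-11) and 2.14 below NaCl. Lss fell by 1.36, and Fdps, the largest fall of the list, by 1.6. The sterol exporter Abcg1 rose by 0.75. Of 13 genes of fatty acid synthesis and desaturation 9 fell and 1 rose, with Scd1, a desaturase, at -1.32 and Fads1 at 0.29.

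Cell division genes were higher in DAHB+O. All 35 tested DNA replication genes rose, at a median of 0.632, and 33 of 36 genes of G2/M and mitosis rose with 1 lower, at a median of 0.406. Mcm2, a subunit of the replicative helicase, had 7692, 7213 and 7352 normalized counts in DAHB+O, against 4054, 3483 and 3166 in DAHB and 8721, 8158 and 8317 in NaCl. Every DAHB+O library exceeded every DAHB library and stayed below NaCl, and the rise was 1.06 ± 0.066 (SE, limma adjusted p = 3.34e-09). Pole, the leading-strand polymerase, rose by 1.16 and Cdc45 by 0.97. Tk1, thymidine kinase, gave 0.13, and its call was lost in 11 alternatives, edgeR and DESeq2 among them (adjusted p = 0.0541 and 0.0878). Mki67, the proliferation marker, had 14902, 15825 and 14628 in DAHB+O, against 11126, 10207 and 12006 in DAHB and 31493, 24535 and 25788 in NaCl. It lay between the other groups without overlap, 0.45 ± 0.077 above DAHB (limma adjusted p = 0.000121) and 0.84 below NaCl. Foxm1, a transcription factor of G2 and mitosis, rose by 0.92 and the kinetochore gene Ndc80 by 0.88, while Cenpa, the centromeric histone, fell by 0.35.

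The cell cycle homology region, searched as TTTGAA on both strands, was found in 22 of 31 promoters of the G2/M and mitosis list (71.0%), against 14.1% of tested genes with a promoter there and 17.9% of all promoters in the table. The list names genes by their role in division, so its 71.0% may follow from that choice and does not bear on the change in DAHB+O. In the sets defined by the change itself the shares were close, at 16.2% of genes at least 2-fold higher and 17% of genes at least 2-fold lower in DAHB+O. Of the 22 list members that held the element 19 rose and 1 fell, against 33 and 1 of all 36 tested members. The windows of 2 members of the list are shown with the match in capitals.
Mki67, chr7:135716452-135716515 (- strand): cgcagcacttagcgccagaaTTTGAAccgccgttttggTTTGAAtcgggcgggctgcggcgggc
Cdc20, chr4:118437344-118437381 (- strand): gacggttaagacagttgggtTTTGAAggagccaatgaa
Cdc20, an activator of mitotic exit, had 1576, 1475 and 1547 normalized counts in DAHB+O, against 1233, 1239 and 1099 in DAHB and 4944, 4804 and 4798 in NaCl, and rose by 0.37 ± 0.050.

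G1 cyclins, kinases and inhibitors had 7 higher and 6 lower of 20. That was 35.0% and 30.0%, near the 33.1% and 29.5% of all tested genes. Cdkn1a, the inhibitor p21, had 8054, 7537 and 7592 normalized counts in DAHB+O, against 11876, 14529 and 13875 in DAHB and 7717, 8642 and 8081 in NaCl, and fell by 0.79 ± 0.063 (limma adjusted p = 4.33e-08) to a level that overlapped with NaCl. Ccnd2, cyclin D2, fell by 0.35 and Ccne2, cyclin E2, rose by 0.59. Ribosome biogenesis rose in 27 of 28 cases with none lower, at a median of 0.59, with the nucleolar proteins Ncl at 0.7 and Nop56 at 1.03. Myc had 15558, 14900.5 and 14403 in DAHB+O and 17208, 14124 and 13234 in DAHB, overlapping at 0.02 ± 0.073 (limma adjusted p = 0.845) and passing without DAHB replicate 1 (0.13, adjusted p = 0.0311), whereas its antagonists Mxd1, Mxd4 and Mxi1 fell by 2.13, 0.95 and 0.89. Nucleotide synthesis rose in 15 of 22 cases and fell in 4, with Ctps, which makes CTP, at 1.0.

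The series is titled for chromatin accessibility, and chromatin enzymes are given here by class. ATP-dependent remodelers rose in 20 of 39 cases, fell in 5 and did not pass in 14, at a median of 0.163. Chd7 had 8818, 9639 and 9811 normalized counts in DAHB+O, against 27466, 28265 and 30549.5 in DAHB and 14429, 14994 and 14681 in NaCl, and fell by 1.61 ± 0.047 (log2, limma adjusted p = 1.43e-12). Hells, a remodeler needed for DNA methylation, had 5463, 5220.4 and 5159 in DAHB+O, against 2455, 2161 and 1903 in DAHB and 5257, 4729 and 4975 in NaCl, and rose by 1.29 ± 0.070 into the range of NaCl. Both moved towards their NaCl level, Chd7 past it. Baz1a fell by 0.85, and Phf10, of the SWI/SNF family, rose by 0.6. Enzymes that methylate histones or DNA rose in 16 of 24 cases and fell in 3, with Nsd2 at 0.77 and the maintenance methyltransferase Dnmt1 at 0.67. Demethylases fell in 11 of 17 cases and rose in 2, with Kdm3a at -0.93, itself a HIF-1 target, and Kdm5c at -0.61. Under quantile normalization 4 demethylases were higher. Acetylation enzymes were split, 10 higher and 9 lower of 24, and Ep300, the acetyltransferase p300, fell by 1.04 ± 0.064.

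Metal and protein stress genes mostly fell. Mt1, a metallothionein that binds zinc (chromosome 8, 94179082 to 94180327), had 1296, 1429 and 1591 normalized counts in DAHB+O, against 18084, 21964 and 21754 in DAHB and 7178, 8947 and 8072 in NaCl, and fell by 3.84 ± 0.087 (SE, limma adjusted p = 8.3e-14). Mt2 had 110.4, 119 and 129 in DAHB+O, against 1196, 1178 and 1211 in DAHB and 361, 456 and 381 in NaCl. Both lay below NaCl as well as below DAHB in every library. Mt3 fell by 2.23 and the zinc importer Slc39a10 by 1.87. Of the 5 tested metallothionein and zinc genes 4 fell and 1 rose. The 21 NRF2 and thiol genes gave 8 higher and 7 lower, or 38.1% and 33.3%, against 33.1% and 29.5% of all tested genes. Nfe2l2, which encodes NRF2, was at 0.63. Heat shock and endoplasmic reticulum stress genes fell in 19 of 29 cases and rose in 3. Pdia6 and Hsp90b1, folding factors of the endoplasmic reticulum, fell by 0.97 and 0.83, while Herpud1, which serves its protein disposal, rose by 1.04 ± 0.066.

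Survival and interferon genes had no common direction. In the BCL2 family 6 of 21 rose and 7 fell. That was 28.6% and 33.3%, near the 33.1% and 29.5% of all tested genes. The pro-death Bcl2l11 (BIM) had 7601, 8582 and 8825 normalized counts in DAHB+O, against 16371, 17103 and 17309 in DAHB and 5257, 5623 and 6103 in NaCl, and fell by 1.02 ± 0.058, while Bid and Bbc3 (PUMA) rose by 0.98 and 0.86 and Cflar, which blocks death receptors, fell by 0.93. Interferon response genes rose in 15 of 32 cases and fell in 14, with Oasl1 at 1.09, Gbp2 at -1.29 and Dhx58 at -1.31. Antigen presentation had 7 higher and 6 lower of 20, or 35.0% and 30.0%, also near the shares of all tested genes. The class II gene H2-Ab1 was at -1.59 and the invariant chain Cd74 at 0.71. Of the 8 class II genes 2 rose and 4 fell. Of the 10 tested B cell markers 7 were lower in DAHB+O and 0 higher. In DAHB against NaCl 7 class II genes were higher and 0 lower, and 3 B cell markers were higher and 5 lower. The part of B cells in these values was not tested.

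Among single genes past the threshold whose 6 libraries did not overlap and whose higher group averaged at least 50 normalized counts, the 8 largest rises were Trib3, Nupr1, Ddit3, Chac1, Slc7a11, Thrb, Snhg5 and Slc7a3. Thrb, a thyroid hormone receptor, is in none of the lists and had 261, 249 and 259 in DAHB+O, against 25.9, 32.0 and 24.0 in DAHB and 40.3, 45.2 and 56.2 in NaCl, a rise of 3.2 ± 0.16 (limma adjusted p = 3.17e-10). The 8 largest falls were RP23-302N11.3, Ccr3, Il10, Adm, Cdh17, Ace, Grin1 and Timp1. The first of them, a gene listed under a clone name, had 1.89, 5.76 and 0.893 in DAHB+O, against 77.6, 108 and 159 in DAHB and 1.03, 9.83 and 5.44 in NaCl. Ccr3, a chemokine receptor best known in eosinophils, had 9.44, 10.4 and 11.6 in DAHB+O, against 289.6, 355 and 471 in DAHB and 18.6, 36.4 and 40.8 in NaCl. Ace, angiotensin-converting enzyme, had 10.4, 16.1 and 10.7 in DAHB+O, against 218, 226 and 219 in DAHB and 23.8, 28.5 and 31.7 in NaCl. Both were high in DAHB only, and fell by 5.0 and 4.07 against it. Grin1, an NMDA receptor subunit, had 14.2, 23 and 23.2 in DAHB+O, against 278, 343 and 396 in DAHB and 176, 194 and 196 in NaCl, and Adm, adrenomedullin, a HIF-1 target, had 3.78, 1.15 and 4.46 in DAHB+O, against 36.8, 110.4 and 105 in DAHB and 84.8, 112 and 101 in NaCl. These were low in DAHB+O only, and fell by 4.02 and 4.32. The pseudocount of 1 makes such folds of weak genes too small. Of 2522 genes averaging 10 to 50 normalized counts, 5.99% were at least 2-fold higher and 14.1% at least 2-fold lower, against 1.34% and 3.99% of 2456 genes averaging over 3000.

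DAHB+O also stood apart from NaCl in most genes. The comparisons of DAHB+O and of DAHB with NaCl share libraries with each other and with the one above, so only their own values are given. In DAHB+O against NaCl 74.2% of tested genes were called, 36.5% higher and 37.7% lower. In DAHB against NaCl 73.9% were called, 35.5% higher and 38.4% lower. Cytotoxic genes had 4 higher and 13 lower in DAHB+O against NaCl and 15 higher and 6 lower in DAHB against NaCl, out of 24. Glycolysis and HIF-1 target genes had 4 higher and 33 lower in DAHB+O and 17 higher and 5 lower in DAHB, out of 40. Amino acid synthesis genes had 17 higher and 5 lower in DAHB+O and 3 higher and 21 lower in DAHB, out of 28. Cholesterol genes had 2 higher and 27 lower in DAHB+O and 6 higher and 21 lower in DAHB, out of 30. G2/M and mitosis genes had 0 higher and 34 lower in DAHB+O and 0 higher and 36 lower in DAHB, out of 36. Glycolysis and cholesterol genes were thus mostly below NaCl in DAHB+O, amino acid synthesis mostly above it, and mitotic genes below it in both groups.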

How the data were processed

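RNA of 9 samples, 3 per group by their labels, was sequenced in bulk. Per the submitters' processing notes, the build was mm10 and the tools were HTSeq 0.9.1, STAR 2.4, Trim Galore 0.4.5, DESeq2 and Picard. The authors deposited 1 table of normalized counts, a signal per gene in which whole reads had been divided by a size factor for each library. The strand setting of the counting is not given in the sources used here. Dividing each library by its smallest step gave whole reads (tolerance 1e-06). Reads recovered this way served only for alternatives. Tests used limma 3.58.1 in R 4.3.3 with a variance trend on log2(normalized count + 1), in 1 fit of all 9 libraries with 3 contrasts, for genes with a mean of at least 10, two-sided, with Benjamini-Hochberg adjustment over all 14169 genes. The fit was also run on simulated counts with far fewer changed genes than were called here. That run does not measure the error of the calls in these data. Fold changes on this scale understate those of weak genes. SEs come from the fit, with 3 libraries per group.

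The members and the gene lists were chosen with earlier results of these data known. Genes named are the 8 largest rises and falls (no overlap, a mean of at least 50 in the higher group), up to 4 genes of smallest p and the extremes of each list, a fixed panel, and the ATP synthase and mitochondrial genome genes. Outside it, Atf3, Atf5, Cebpb, Eif2ak1, Hif1a, Dars, Ccr7, Pycr1, Cdc20, Pfkfb2, Hk3 and Car9 were named after their values were seen. Some genes the rule names are not reported here. Alternatives were other pseudocounts and filters, TMM, quantile normalization, edgeR 4.0.16, DESeq2 1.42.0, a replicate block, the 6 libraries alone and leaving out each library.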

Additional observations from a re-analysis of the deposited data

How the results depend on the processing

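Counts over all genes moved by over 1.5 times only with a minimum mean of 50, where 246 genes were at least 2-fold higher and 510 at least 2-fold lower in DAHB+O than in DAHB, against 397 and 866, since that filter removes weak genes. Leaving out each library in turn gave 8154 to 8924 called genes against 8866, of them 4287 to 4714 higher and 3836 to 4210.0 lower, with 372 to 438 at least 2-fold higher and 825 to 938 at least 2-fold lower. Against NaCl the ranges were 10011 to 10692 for DAHB+O and 10012 to 10418 for DAHB. Same-numbered libraries of DAHB+O and DAHB had deviations correlated at 0.16, 0.053 and 0.073, and the main fit did not pair them. Every DAHB+O library correlated best with the DAHB library of its own number. Each DAHB+O and DAHB library likewise correlated best with the NaCl library of its own number. Whether libraries of 1 number share a source was not tested. With the replicate number as a block 9145 genes were called. Signs turned for 12 of the genes recomputed. Under quantile normalization the log2 fold change was 0.16 for Atp5a1, 0.013 for Atp5b, 0.035 for Atp5c1, 0.088 for Atp5f1, 0.14 for Ccr7, 0.15 for Hif1a, 0.019 for Slc7a2, 0.024 for Tbx21 and 0.16 for mt-Co1. Myc gave -0.0019 with edgeR and -0.0034 with DESeq2. Leaving out 1 library gave -0.061 to 0.13 for Myc, -0.017 to 0.33 for Eomes, -0.38 to 0.059 for Slc7a2, -0.12 to 0.061 for Tbx21 and -0.024 to 0.14 for Car9. The cause was not tested. Under quantile normalization, 5 effector transcription factors and 5 heat shock or endoplasmic reticulum stress genes were higher, against 2 and 3. The median over all genes stayed between -0.004 and 0.041. Sampling noise limits genes with few counts, such as mt-Co2, whose low counts have a cause that was not tested. Dose, time and the effect of oligomycin without DAHB cannot be read from these groups.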

Other observations

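Genes of lysosomes and autophagy fell more often than they rose in DAHB+O, 17 lower and 7 higher of 32. Map1lc3b, which encodes the autophagosome protein LC3B, had 1874, 1991 and 1974 normalized counts in DAHB+O, against 3554, 3817 and 3552 in DAHB and 3321, 3567 and 3383 in NaCl. DAHB+O stood alone below the other groups, 0.9 ± 0.044 under DAHB on the log2 scale (limma adjusted p = 2.39e-10). Atp6v0d2, a subunit of the proton pump of the lysosome, had 82.1, 114 and 170.5 in DAHB+O, against 668, 924 and 1352 in DAHB and 84.8, 145 and 148 in NaCl. It was high in DAHB only, and the fall of 3.0 ± 0.27 brought it into the range of NaCl. Pink1, a kinase that marks damaged mitochondria, fell by 0.67 ± 0.049 and Ulk1, a kinase that starts autophagy, by 0.39 ± 0.048. Mitf, a factor that turns on lysosomal genes, rose by 1.17 ± 0.16, with 137, 126 and 124 in DAHB+O, against 55.7, 54.2 and 60.5 in DAHB and 23.8, 21.6 and 29.0 in NaCl. Of 30 genes of AMPK and mTORC1 sensing 10 rose, 9 fell and 11 did not pass. That was 33.3% higher and 30.0% lower, near the 33.1% and 29.5% of all tested genes. Gatsl3, also named Castor1, the arginine sensor of mTORC1, had 928, 993 and 939 in DAHB+O, against 2145, 2404 and 2539 in DAHB and 533, 641 and 579.9 in NaCl. It fell by 1.31 ± 0.071 against DAHB, while the leucine sensor gene Sesn2 rose, with 2275, 1879.6 and 1797 in DAHB+O, against 814, 731 and 729 in DAHB.

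Carriers of the inner mitochondrial membrane had 15 genes higher, 10 lower and 15 that did not pass of 40, at a median log2 fold change of 0.089. That was 37.5% higher and 25.0% lower, against 33.1% and 29.5% of all tested genes. Slc25a33, a pyrimidine nucleotide carrier, had 692, 562 and 594 normalized counts in DAHB+O, against 301, 243 and 281 in DAHB and 207, 179 and 196 in NaCl, and rose by 1.16 ± 0.099 (limma adjusted p = 9.53e-08). Slc25a37, mitoferrin-1, which brings in iron, had 1387, 1414 and 1426 in DAHB+O, against 899.5, 869 and 862 in DAHB and 917, 888 and 853 in NaCl. Its DAHB and NaCl libraries overlapped, and DAHB+O stood 0.68 ± 0.048 above DAHB. Dnmt3b, a DNA methyltransferase that sets new marks, had 1229.7, 1103 and 1153 in DAHB+O, against 734, 629 and 591 in DAHB and 642, 581 and 527 in NaCl, and rose by 0.84 ± 0.084. Among cytokine receptors 12 of 16 fell and 2 rose. Cdkn2d, which encodes the G1 inhibitor p19INK4d, fell by 0.96 ± 0.065 and Ccnd1, cyclin D1, rose by 0.91 ± 0.19 with 93.4, 77.2 and 75.9 in DAHB+O, against 44.8, 44.5 and 39.6 in DAHB.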
